A study of Capra hircus with 29 samples.

Results

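Oocytes of medium follicles from high and low fertility Ji'ning grey goats were compared by RNA-seq. The high fertility samples are called HMO and the low fertility samples LMO, with 5 samples in each, so that 10 of the 29 oocyte samples of the series entered the comparison. Goats were put in the high fertility group at litters above 3 kids and in the low fertility group below 2 kids by the labels, whereas the methods of the study set the limits at 3 and 2 kids with the limits included. All animals are of the same breed, the labels name no agent or allele in either group, and ages are not given in the sources used here. By the study's methods the oocytes of a follicle size were pooled over the goats of the high fertility group, and the oocytes of each stage were then divided into samples of a few oocytes. The samples of a group are therefore not separate animals, and the p-values measure the spread between such samples only. A gene was included when its level was above 0.5 FPKM (fragments per kilobase of transcript, scaled to the number of mapped fragments) in at least 4 of the 10 samples, which 8390 of the 21343 genes in the table met. Of the genes left out, 5322 were listed at 0 in all 10 samples.

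The oocyte of a growing follicle makes and stores most of the mRNA, ribosomes and mitochondria on which the early embryo will later depend. In medium follicles the oocyte is still arrested in meiosis, is surrounded by a zona pellucida built from its own glycoproteins, and secretes GDF9 and BMP15, growth factors that act on the granulosa cells around it. Variants in the BMP15, GDF9 and BMPR1B genes are known for their effect on ovulation rate in sheep.

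The identity of the samples was checked first. Of 15 entries for oocyte markers in the table, 13 passed the limit on low values, among them ZP3 (468.1 to 2085 FPKM), BTG4 (173 to 2090 FPKM) and BMP15 (79.3 to 306 FPKM). The gonadotropin receptor genes FSHR and LHCGR, AMH and the aromatase gene CYP19A1, which define granulosa cells, were at most 0.252, 0.0151, 0 and 0.204 FPKM in any of the 10 samples. Other markers of these cells were detected. Over all 12 granulosa and cumulus markers the summed level was 1.74 to 2.46 FPKM in HMO and 1.93 to 25.6 FPKM in LMO. The highest sum was in LMO replicate 5, where TNFAIP6, INHBA and FST were at 16.6, 5.21 and 1.02 FPKM. FST was also at 1.02 FPKM in LMO replicate 4, and HAS2 was at 0.640 to 1.85 FPKM over the 10 samples. Libraries differed within each group. LMO replicate 2 had an FPKM sum of 222697, against 395190 to 490048 in the other 9 samples, and HMO replicate 2 was the lowest HMO sample for most of the genes counted below as higher in HMO. The number of genes above 0.5 FPKM was 7837 ± 471 in HMO and 7826 ± 556 in LMO (SD, n = 5 each, exact two-sided permutation test, p = 0.952), a difference of 11.2 genes. These means cover a split within each group. The number was 8384 and 8316 in HMO replicates 1 and 5 but 7425 to 7532 in HMO replicates 2, 3 and 4. It was 8047 to 8318 in LMO replicates 1, 4 and 5 but 7516 and 7005 in LMO replicates 2 and 3.

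A differential expression test was then run with limma on log2(FPKM + 1), and a gene was counted when its unadjusted p was under 0.05 and its log2 fold change, HMO minus LMO, was beyond 1 in either direction. By these limits 239 genes (2.85% of those tested) were higher in HMO and 46 genes (0.548%) were higher in LMO, 285 in all (3.4%), while 8105 genes were counted in neither direction. Without the fold limit the counts were less lopsided. At an unadjusted p under 0.05 alone there were 727 genes (8.67%), of which 427 (5.09%) were higher in HMO and 300 (3.58%) in LMO, and 4742 of all genes tested (56.5%) had a log2 fold change below 0, with a median of -0.07. Of the counted genes, 50 that were higher in HMO and 9 that were higher in LMO passed a log2 fold change of 2. The FPKM sum was 453373 ± 36662 in HMO and 380896 ± 89546 in LMO (SD, n = 5 each, exact two-sided permutation test, p = 0.0794). When FPKM was rescaled to equal sums over all genes, the median of all genes shifted by -0.18 and the counts became 167 and 147. Without HMO replicate 2 the counts were 341 and 115, without LMO replicate 2 they were 186 and 56, and without both they were 271 and 68. The count of genes higher in LMO was also sensitive to LMO replicates 1 and 3, being 88 and 107 when these were left out in turn.

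After Benjamini-Hochberg adjustment over all genes tested, 6 genes (0.0715%) had an adjusted p under 0.05 in limma. Leaving out HMO replicate 2 raised the number to 161. It was 1 when HMO replicate 1 or LMO replicate 2 was left out, 2 when LMO replicate 3 was, and 0 when replicate 4 or 5 of either group was. The 6 genes kept the direction of their difference in every alternative in which they were tested. FABP1 was not tested with the filter of 1 FPKM. Under either rescaling LOC102187932 alone kept an adjusted p under 0.05 in limma, and with no filter on low FPKM none did. The smallest adjusted p-values belonged to a pair of genes of the same enzyme family. LOC102189495 and LOC102187932 are named dihydrodiol dehydrogenase 3 and dihydrodiol dehydrogenase 3-like, members of the aldo-keto reductases, which reduce carbonyl groups of steroids and other compounds.

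LOC102189495 (ENSCHIG00000016878) was at 26.2, 16.9, 6.03, 11.3 and 23.7 FPKM in HMO replicates 1 to 5 and at 0.7997, 1.19, 1.90, 1.04 and 2.22 FPKM in LMO replicates 1 to 5. Each HMO sample was above each LMO sample, HMO replicate 2 included, and the log2 fold change was 2.75 (SE 0.384, adjusted p 0.0358 in limma). LOC102187932 (ENSCHIG00000021985) went the opposite way, with 0.384, 0.0438, 0.0461, 0 and 0.0429 FPKM in HMO and 1.91, 1.18, 1.99, 2.64 and 2.56 FPKM in LMO. All LMO samples lay above all HMO samples at a low level, at a log2 fold change of -1.46 (SE 0.184, adjusted p 0.0246 in limma). Reads were counted where they matched at a unique place, and whether reads of these similar genes were split between them was not tested, so both values are uncertain in that respect.

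TLR3 (ENSCHIG00000015873), the endosomal receptor for double-stranded RNA, had 4.45, 1.13, 3.41, 3.82 and 3.15 FPKM in HMO and 0.387, 0.131, 0.298, 0.451 and 0.325 FPKM in LMO. The groups did not overlap (log2 fold change 1.605, SE 0.25, adjusted p 0.044 in limma). HMO replicate 2 was the lowest HMO sample. At the other stages the log2 fold change of TLR3 was negative, -0.39 in small and -0.50 in large follicles. FABP1 (ENSCHIG00000019452), a fatty acid-binding protein best known from liver and gut, was listed at 0 in 4 of the LMO samples and at 0.223 FPKM in LMO replicate 5, whereas HMO ranged from 0.705 to 1.44 FPKM. Its difference (log2 fold change 0.95, SE 0.139, adjusted p 0.0377 in limma) rested on values near the limit on low values, and it fell short of the fold limit. LOC102182207 (ENSCHIG00000009925) is 1 of 8 genes of the table under that symbol and is therefore uncertain. It had 51.4, 3.20, 20.5, 9.10 and 20.9 FPKM in HMO and at most 0.865 FPKM in LMO. The log2 fold change was 3.42 (SE 0.548, adjusted p 0.0483 in limma), and HMO replicate 2 was the lowest HMO sample here too.

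PLEKHA3 (ENSCHIG00000019515) encodes a protein that binds the lipid phosphatidylinositol 4-phosphate (PI4P) on the Golgi membrane and takes part in transport from there to the cell surface. It was the gene with the largest fold change among those higher in LMO whose samples did not overlap. Its levels were 1.31, 1.23, 2.84, 0.798 and 1.98 FPKM in HMO and 6.40, 13.4, 7.19, 15.9 and 10.3 FPKM in LMO. The means were 1.63 ± 0.797 and 10.6 ± 4.03 FPKM (SD, n = 5), and the log2 fold change was -2.12 (SE 0.322, adjusted p 0.0411 in limma). Of 15 tested genes for Golgi PI4P and lipid exchange, PLEKHA3 alone met the counting limits, which 3.4% of all genes tested did. Its close relative PLEKHA8 also had all LMO samples above all HMO samples, but at a log2 fold change of -0.47, and the kinase gene PI4KB and the lipid exchange genes OSBPL9 and COL4A3BP had log2 fold changes of -0.34, 0.00 and -0.31.

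**Figure D1:**
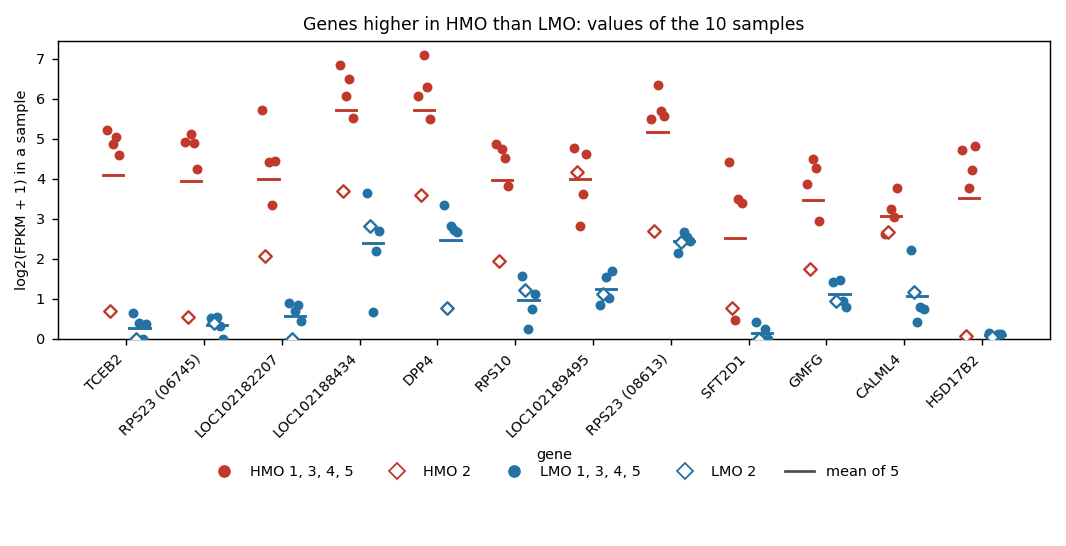
Level of 11 named genes higher in HMO, with HSD17B2, as log2(FPKM + 1) on the y axis. The 11 have large fold changes among genes whose groups did not overlap, whereas HSD17B2 overlapped. Points are the 5 HMO (red) and 5 LMO (blue) samples, diamonds are replicate 2 of each group and bars are means. For TCEB2, RPS23 and HSD17B2 the 4 red points lie well above all blue points, while the red diamond lies at or near the LMO level.

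The 5 HMO samples and the 5 LMO samples did not overlap for 143 genes (1.7%), 71 of them higher in HMO (0.846%) and 72 higher in LMO (0.858%). Fewer samples had to separate when 1 was left out, and the number was then 736 for HMO replicate 2, 330 for LMO replicate 3 and 253 for LMO replicate 1. Among the genes with a symbol that also met the counting limits, 34 were higher in HMO and 10 were higher in LMO. Of those with the largest fold changes in HMO, 11 are plotted. For most of them HMO replicates 1, 3, 4 and 5 were high and HMO replicate 2 was near the LMO level. TCEB2 (ENSCHIG00000024274, 1 of 2 genes with that symbol), elongin B of the elongin and cullin ubiquitin ligases, had 36.1, 0.629, 28.2, 32.0 and 23.0 FPKM in HMO and 0.564, 0, 0.307, 0 and 0.301 FPKM in LMO. HMO replicate 2 was thus above the LMO samples by a narrow margin only, whereas the other 4 HMO samples were higher by more than an order of magnitude. The log2 fold change was 3.801 (SE 0.716, adjusted p 0.101 in limma), and the other TCEB2 entry, at a mean of 224 FPKM in HMO and 162 FPKM in LMO, had a log2 fold change of 0.59.

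Some entries for ribosomal proteins showed the same form. An RPS23 entry (ENSCHIG00000006745, 1 of 9 with that symbol) had 29.1, 0.463, 33.75, 28.9 and 18.05 FPKM in HMO and at most 0.457 FPKM in LMO, at a log2 fold change of 3.59 (SE 0.721, adjusted p 0.127 in limma). A further RPS23 entry (ENSCHIG00000008613) had 43.7, 5.52, 80.1, 51.1 and 46.5 FPKM in HMO and 3.44 to 5.37 FPKM in LMO. RPS10 (ENSCHIG00000008222, 1 of 6 with that symbol) had 28.0, 2.85, 25.6, 21.7 and 13.02 FPKM against 0.191 to 1.99 FPKM. In all of them HMO replicate 2 was the lowest HMO sample and lay just above the highest LMO sample. LOC102188434 (ENSCHIG00000003395, 1 of 3 with that symbol), which the table annotates to the cytochrome c oxidase complex, had 113, 11.9, 66.6, 88.5 and 45.04 FPKM in HMO and 0.582 to 11.6 FPKM in LMO.

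Other genes of this group act at the cell surface, in the cytoskeleton or in vesicle transport. DPP4 (ENSCHIG00000021048), a membrane-bound peptidase, had 65.9, 11.0, 135.5, 77.8 and 43.9 FPKM in HMO and 9.19, 0.693, 6.07, 5.62 and 5.41 FPKM in LMO, at a log2 fold change of 3.24 (SE 0.639, adjusted p 0.123 in limma). HMO replicate 2 was again the lowest HMO sample. GMFG, a regulator of actin branches, had a log2 fold change of 2.35, and SFT2D1, of vesicle transport and 1 of 4 genes with its symbol, had 2.37, with HMO replicates 2 and 3 both under 1 FPKM. CALML4, a calmodulin-like protein known from the microvilli of epithelial cells, had another order of samples, since HMO replicate 2 at 5.38 FPKM was above HMO replicate 1 at 5.14 FPKM and LMO ranged from 0.336 to 3.66 FPKM (log2 fold change 1.999, adjusted p 0.0928 in limma).

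Several of these genes are known from gut and liver epithelium, and the markers of those tissues were looked up. All 12 entries for enterocyte and liver markers summed to 0.888 to 1.98 FPKM in HMO and 0.308 to 1.84 FPKM in LMO. Albumin (ALB, 0.159 to 1.45 FPKM) was the marker that passed the limit on low values, and the defining markers FABP2 and APOA4 were at 0 and VIL1 at no more than 0.0343 FPKM in the 10 samples.

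HSD17B2 (ENSCHIG00000002159) oxidises estradiol and testosterone to their less active forms. It was at 25.25, 0.0443, 12.7, 17.7 and 27.4 FPKM in HMO and at 0.101, 0.026, 0.0285, 0.0833 and 0.0908 FPKM in LMO. Because HMO replicate 2 was at the LMO level the groups overlapped, and the log2 fold change was 3.43 (SE 0.731, adjusted p 0.14 in limma). Of the 18 tested steroid and retinoid dehydrogenase genes it was the one that met the counting limits, which 3.4% of all genes tested did. HSD17B10, HSD17B12 and RDH10 (the more abundant entry, 120 and 140 FPKM) had log2 fold changes of 0.16, -0.10 and -0.26.

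The pattern held for most of the counted genes. HMO replicate 2 was the lowest HMO sample for 198 of the 239 genes higher in HMO (82.8%), compared with 27.8% of all genes tested. HMO replicates 1, 3, 4 and 5 were all above HMO replicate 2 and above every LMO sample for 169 of them (70.7%), compared with 3.91% of all genes tested. These shares describe the counted genes and are no test, since a gene is counted when HMO is high. In the other stages, whose samples had no part in the count, some samples within a group also stood out for these genes. The highest value was in LLO replicate 4 among the 5 low fertility samples of large follicles (LLO) for 206 of the 239 genes (86.2%, and 35.6% of all genes tested). In the low fertility samples of small follicles (LSO), replicates 1, 3 and 4 were all above replicates 2 and 5 for 159 genes (66.5%, and 9.49% of all genes tested). TCEB2 was at 67.2 FPKM in LLO replicate 4 and at 68.3, 23.7 and 27.2 FPKM in LSO replicates 1, 3 and 4. In the other 15 samples of large and small follicles it was at most 0.666 FPKM. TLR3 and LOC102182207, which passed the adjusted threshold, were also high in these 4 samples. TLR3 was at 6.32 FPKM in LLO replicate 4 and at 2.04, 2.14 and 2.855 FPKM in LSO replicates 1, 3 and 4. LSO replicates 2 and 5 were at 0.507 and 0.252 FPKM.

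**Figure D2:**
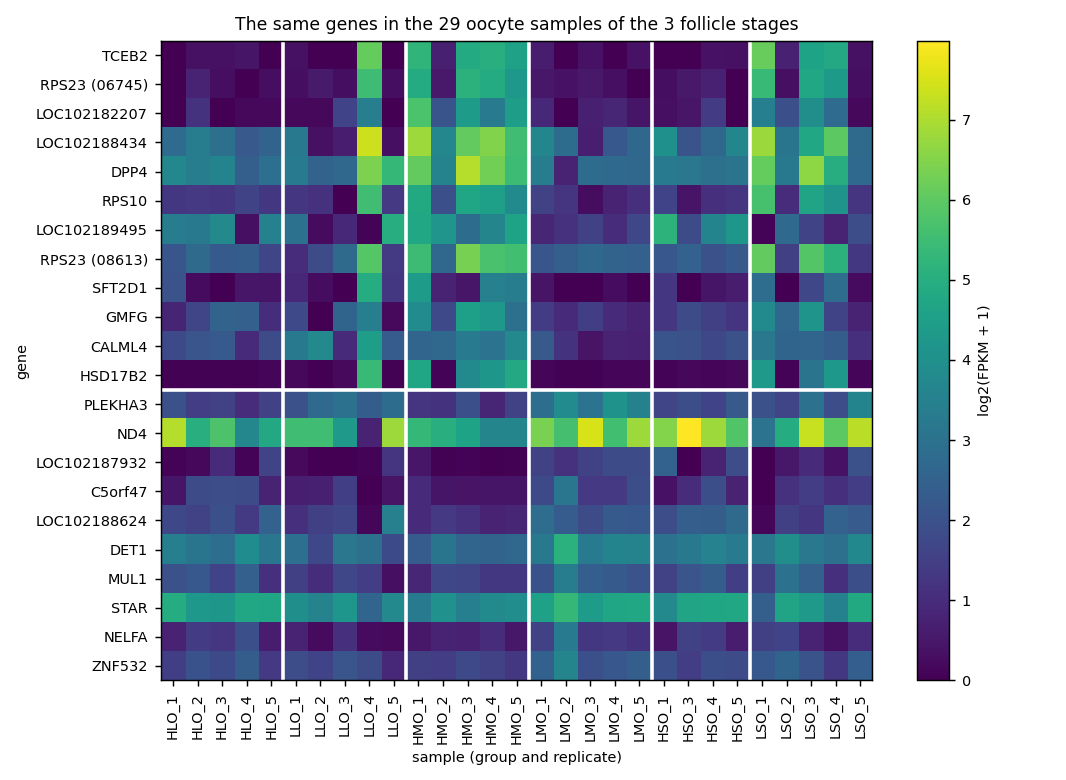
Level of the same 12 genes and of 10 genes higher in LMO without overlap, in rows, as log2(FPKM + 1) by colour. Columns are the 29 oocyte samples, grouped by stage and fertility. Columns LLO 4 and LSO 1, 3 and 4 are bright for TCEB2, RPS23 and HSD17B2, as are HMO 1, 3, 4 and 5.

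At the other stages the genes higher in HMO were rarely called higher in the high fertility group. In small follicles, where 4 high fertility samples (HSO) were compared with the 5 LSO samples in a limma fit of all 29 samples and 9692 genes, 64 of the 239 genes (26.8%) were lower in HSO at an unadjusted p under 0.05, whereas 3.21% of all genes tested were. Of the same genes, 2 were higher in HSO (0.837%, and 1.75% of all genes tested). Their median log2 fold change was -0.76, against -0.01 for all genes. In large follicles (HLO against LLO) 6 of the 239 genes were higher and 6 lower at that limit, which is 2.51% each way, against 6% and 4.56% of all genes tested, and their median was -0.39. TCEB2 and HSD17B2 had log2 fold changes of -3.14 and -2.22 in small and -1.06 and -1.09 in large follicles. Of the 11 genes plotted as higher in HMO, LOC102189495 alone had a positive log2 fold change at both other stages. The values were 2.29 in small and 0.99 in large follicles. LOC102189495 was at 35.0, 2.62, 11.2 and 17.7 FPKM in HSO and at 0.0539 to 5.69 FPKM in LSO, so that these groups overlapped.

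The difference HMO minus LMO was then tested against the mean of the differences in large and small follicles, in the same model of 6 groups. Of 9692 genes, 1013 (10.5%) had an unadjusted p under 0.05, and 1 gene (0.0103%) had an adjusted p under 0.05. This was LOC102182207, with a log2 difference of 4.75 (SE 0.795, adjusted p 0.0198 in limma), and no gene passed without HMO replicate 1, 3 or 5 or LMO replicate 2 or 5, whereas 151 did without HMO replicate 2 and 2 without LMO replicate 3. The corresponding values for TCEB2 and DPP4 were 5.90 and 4.47 (adjusted p 0.057 in limma for each). They were 2.05 for TLR3 (adjusted p 0.057 in limma) and -1.30 for PLEKHA3 (adjusted p 0.172 in limma). For LOC102182207, TCEB2, DPP4 and TLR3 the differences at both other stages were opposite, which adds to these values. LOC102182207 had log2 fold changes of -1.91 in small and -0.76 in large follicles. It was at 9.95, 14.25 and 5.92 FPKM in LSO replicates 1, 3 and 4 and at 9.60 FPKM in LLO replicate 4. PLEKHA3 was lower in the high fertility group in large follicles too, with 1.02 to 2.93 FPKM in HLO and 2.94 to 6.83 FPKM in LLO, 2 groups that did not overlap, and a log2 fold change of -1.07.

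**Figure D3:**
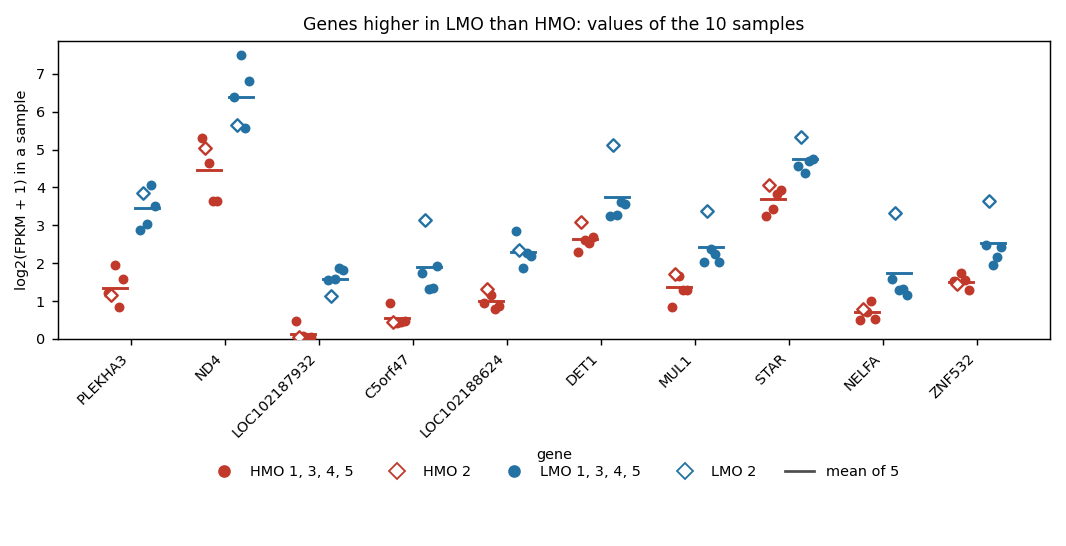
Level, as log2(FPKM + 1) on the y axis, of the 10 named genes counted as higher in LMO without overlap of the groups. HMO is in red, LMO in blue, replicate 2 as diamonds and means as bars. The blue diamond is the highest LMO point for DET1, MUL1, STAR, NELFA, ZNF532 and C5orf47.

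The 46 genes higher in LMO were of a different kind. They included 11 of the 13 mitochondrially encoded genes, and 10 of the 46 had a symbol and no overlap between the groups. LMO replicate 2 was the highest LMO sample for 6 of these 10, and for 18 of the 46 genes (39.1%, and 24.8% of all genes tested). STAR (ENSCHIG00000017362), which brings cholesterol into mitochondria for steroid synthesis, had 8.54, 15.6, 9.86, 13.3 and 14.2 FPKM in HMO and 22.5, 39.0, 19.8, 25.1 and 26.0 FPKM in LMO. Each LMO sample was above each HMO sample, with means of 12.3 ± 2.97 and 26.5 ± 7.41 FPKM (SD, n = 5) and a log2 fold change of -1.04 (SE 0.308, adjusted p 0.266 in limma). In large follicles STAR differed in the opposite direction, with 17.6 to 30.0 FPKM in HLO and 5.11 to 17.2 FPKM in LLO (log2 fold change 0.96).

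STAR is also a marker of theca cells. The theca and stroma markers, 10 entries of which 5 passed the limit on low values, summed to 28.3 to 65.1 FPKM in HMO and 49.5 to 70.3 FPKM in LMO. The defining markers INSL3, PDGFRA and COL1A1 were at most 0, 0.00773 and 0.0221 FPKM. MGP, DCN and COL1A2 were detected in all 10 samples, and their log2 fold changes were 0.08, 0.05 and -0.43, none with an unadjusted p under 0.05. In pooled samples of this kind, fewer cells of a type and less RNA per cell cannot be told apart. LAPTM5 was the leukocyte marker, of 11 entries, that passed the limit on low values. It had 0.5635, 3.30, 0.705, 1.34 and 0.729 FPKM in HMO and 4.10, 5.72, 2.25, 2.94 and 2.38 FPKM in LMO, overlapping groups, and PTPRC, the marker of all leukocytes, was at most 0.0442 FPKM. The part of other cells in these differences was not tested.

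Several of the other named genes higher in LMO are regulators. LOC102188624 (ENSCHIG00000013939, 1 of 2 with that symbol), annotated as a DNA-binding transcription factor, had 0.726 to 1.48 FPKM in HMO and 2.63 to 6.22 FPKM in LMO, a log2 fold change of -1.29 (SE 0.239, adjusted p 0.0928 in limma). DET1, part of a cullin ubiquitin ligase, had 3.95 to 7.57 FPKM in HMO and 8.42, 33.6, 8.64, 11.2 and 10.9 FPKM in LMO, so that LMO replicate 2 was far above the rest. MUL1, a ubiquitin ligase of the mitochondrial outer membrane, had 0.807 to 2.28 FPKM in HMO and 3.08, 9.36, 4.22, 3.77 and 3.10 FPKM in LMO. The same sample was highest for NELFA, a subunit of the complex that pauses RNA polymerase, for the zinc finger gene ZNF532 and for C5orf47. Without LMO replicate 2 the log2 fold changes of DET1, MUL1, NELFA, ZNF532 and STAR went from -1.11, -1.05, -1.03, -1.02 and -1.04 to -0.77, -0.81, -0.63, -0.74 and -0.90, and no longer met the fold limit. The 46 genes were higher in HLO than in LLO in 40 cases (87.0%, and 42.7% of all genes tested), the opposite of their difference in medium follicles.

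**Figure D4:**
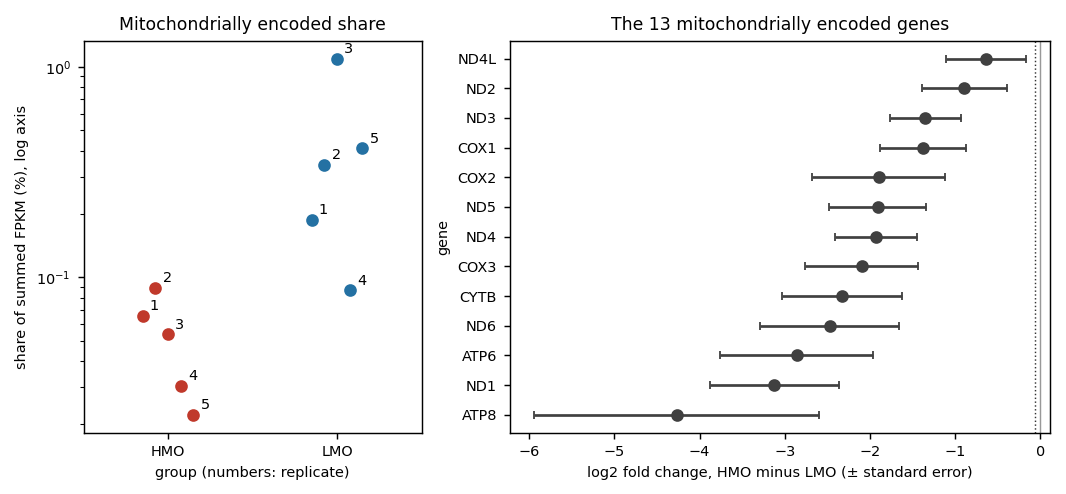
Left, the share of summed FPKM from the 13 mitochondrially encoded genes on a log axis for each HMO and LMO sample, numbered by replicate. Right, the log2 fold change of each gene with its standard error, where all 13 lie below 0 and the dotted line is the median of all genes tested.

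The mitochondrial genome encodes 13 proteins of the respiratory chain and the ATP synthase, and its transcripts were lower in HMO. Their share of the summed FPKM was 0.0656, 0.0894, 0.0538, 0.0305 and 0.0222% in HMO replicates 1 to 5 and 0.188, 0.342, 1.10, 0.0867 and 0.409% in LMO replicates 1 to 5. The groups overlapped only in HMO replicate 2 and LMO replicate 4. The mean shares were 0.0523 ± 0.0271% and 0.424 ± 0.396% (SD, n = 5), a difference of -0.372 percentage points (exact two-sided permutation test, p = 0.0159), or -0.204 points without LMO replicate 3. Of the 13 genes, 11 met the counting limits, all higher in LMO, against 0.548% of all genes tested, and the median log2 fold change was -1.92. ND4, of complex I, was the one whose samples did not overlap, with 38.7, 32.1, 23.9, 11.5 and 11.5 FPKM in HMO and 83.0, 48.9, 180, 46.1 and 111 FPKM in LMO (log2 fold change -1.92, SE 0.481, adjusted p 0.172 in limma). COX3 and ATP6 were highest in LMO replicate 3, at 1262 and 848 FPKM, and ND2 and ND4L, with log2 fold changes of -0.90 and -0.64, did not meet the limits. Since the libraries were made from poly(A) RNA by oligo(dT), these shares are not the mitochondrial RNA content of the oocyte.

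Genes of the mitochondria that are encoded in the nucleus did not share this direction. Of 75 tested genes for the nuclear-encoded respiratory chain and ATP synthase, 4 were counted as higher in HMO and none as higher in LMO, where 2.85% and 0.548% of all genes tested were, and the median log2 fold change was 0.38. Of 71 genes for mitochondrial ribosomal proteins, again 4 were higher in HMO and none in LMO, with a median of 0.31. When FPKM was rescaled to equal sums these medians were 0.09 and 0.06, while the median of all genes shifted by -0.18. HMO replicate 2 was within the LMO range or below it for all 8 counted members. MRPL18 (ENSCHIG00000025460, 1 of 2 with that symbol) had 229, 5.11, 125, 201 and 84.7 FPKM in HMO and 1.385 to 8.89 FPKM in LMO, at a log2 fold change of 3.85 (SE 0.847). ATP5G2 (ENSCHIG00000010267, 1 of 3 with that symbol), for subunit c of the ATP synthase, had 49.8, 0.482, 20.8, 22.4 and 42.9 FPKM in HMO and at most 1.77 FPKM in LMO. Other abundant members had small fold changes. MRPS14 was at 2053 ± 633 FPKM in HMO and 2248 ± 1018 FPKM in LMO (SD, n = 5), at a log2 fold change of -0.09, and NDUFA6 had a log2 fold change of 0.23 (adjusted p 0.842 in limma).

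**Figure D5:**
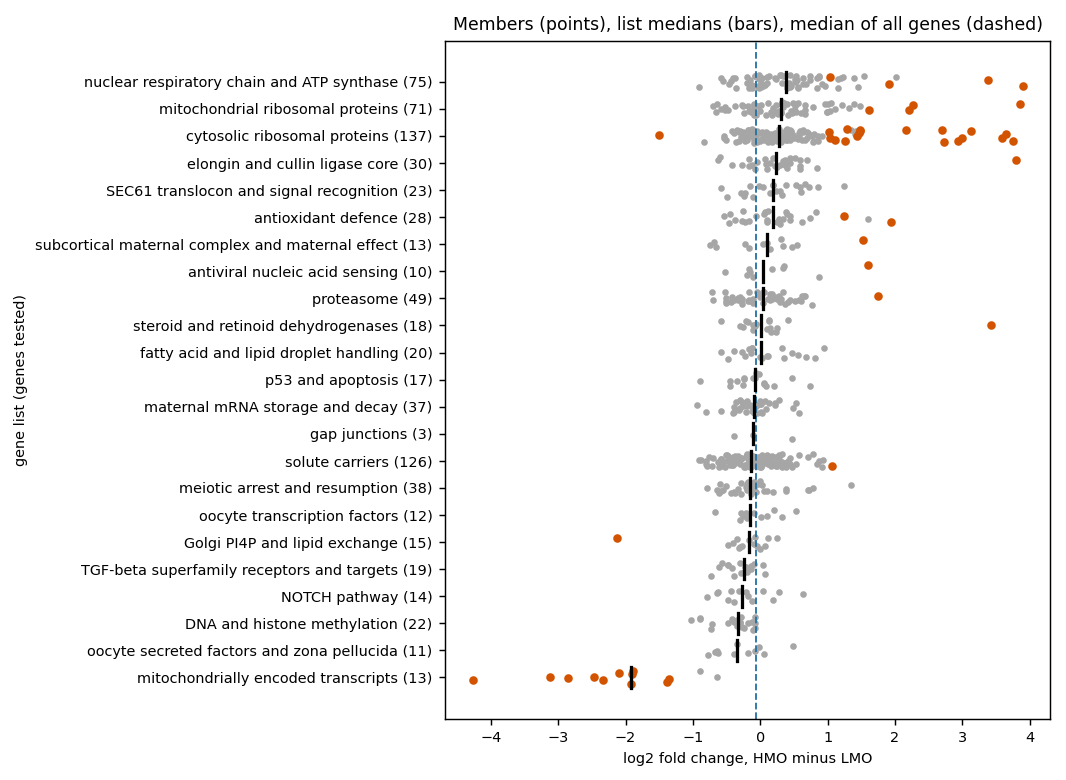
Log2 fold change, HMO minus LMO, of the members tested in each gene list (grey points), with members that met the counting limits in orange, list medians as black bars and the median of all genes as a dashed line. The mitochondrially encoded genes lie far to the left, and the ribosomal and respiratory lists have a tail of orange points to the right.

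Of the gene lists examined, that of cytosolic ribosomal proteins held the most genes counted as higher in HMO. Of 137 tested entries, 18 were counted as higher in HMO and 1, RPSA, as higher in LMO (log2 fold change -1.51), against 2.85% and 0.548% of all genes tested. The median log2 fold change was 0.27, and 0.02 after rescaling to equal sums, which shifted the median of all genes by -0.18. For several of the counted entries HMO replicate 2 was at the LMO level. RPL19 (ENSCHIG00000011685), RPS15A (ENSCHIG00000011047) and RPL7 (ENSCHIG00000012399) had means of 31.6, 24.9 and 28.5 FPKM in HMO and 0.471, 0.260 and 1.09 FPKM in LMO, with HMO replicate 2 at 0.235, 0 and 0.356 FPKM. The most abundant entry, FAU (ENSCHIG00000017446), had a log2 fold change of 0.30 (SE 0.333, adjusted p 0.797 in limma). Of the 137 tested entries, 118 share their symbol with another gene of the table. By the study's methods only reads with a unique match were kept, so reads shared by near-identical copies may have been lost. Each entry is therefore uncertain. Among all 239 genes higher in HMO, 77 (32.2%) shared their symbol with another gene and 69 (28.9%) had no description in the table, compared with 14.9% and 6.78% of all genes tested.

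The genes for which oocytes are best known were looked up next, where 3.4% of all genes tested met the counting limits in either direction. Of 11 tested genes for secreted factors and the zona pellucida none met the counting limits, and the median log2 fold change was -0.35. BMP15 had 79.3, 235, 91.9, 79.3 and 121 FPKM in HMO and 174, 306, 118, 220 and 179 FPKM in LMO, overlapping groups at a log2 fold change of -0.78 (SE 0.392, adjusted p 0.596 in limma). GDF9 had 555.7, 89.8, 226, 246 and 551.5 FPKM in HMO and 284, 31.9, 130, 513 and 463 FPKM in LMO, replicate 2 being the lowest of each group, at a log2 fold change of 0.48 (SE 0.744). The zona pellucida genes ZP2, ZP3 and ZP4 had log2 fold changes of -0.09, -0.68 and -0.63, none with an unadjusted p under 0.05. Among receptors and targets of this signalling, BMPR1A, BMPR1B and BMPR2 were near 1 FPKM, with log2 fold changes of -0.20, -0.29 and -0.14. Of 19 tested genes of the TGF-beta superfamily receptors and targets 17 had a log2 fold change below 0, where 56.5% of all genes tested did, none met the counting limits, and the median was -0.25.

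Of 13 tested genes of the subcortical maternal complex and maternal effect, OOEP, a subunit of that complex, was counted as higher in HMO. It had 222, 126, 78.3, 227 and 127 FPKM in HMO and 140, 36.5, 6.24, 88.5 and 94.9 FPKM in LMO, overlapping groups at a log2 fold change of 1.53 (SE 0.703, adjusted p 0.576 in limma), and 0.83 without LMO replicate 3, where it was no longer counted. NPM2 and ZAR1L had log2 fold changes of 0.30 and 0.04. None of 12 oocyte transcription factors (median -0.15), 37 genes of maternal mRNA storage and decay (median -0.09) or 38 genes of meiotic arrest and resumption (median -0.15) met the counting limits. The most abundant of them, BTG4 of mRNA deadenylation and the kinase gene AURKA, had log2 fold changes of 0.58 (SE 0.577) and -0.19 (SE 0.252).

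The 22 tested genes of DNA and histone methylation all had a log2 fold change below 0, where 56.5% of all genes tested did. Their median was -0.33, and it was -0.26 to -0.52 over the alternative scalings, where the median of all genes moved by 0.07 to -0.19. None met the counting limits. The maintenance methyltransferase gene DNMT1 and its partner UHRF1 had log2 fold changes of -0.27 and -0.74, and the de novo methyltransferase genes DNMT3A and DNMT3B had -0.90 and -1.03. DNMT3A and ASH2L, the latter a subunit of histone H3 lysine methyltransferases, had an unadjusted p under 0.05, and for ASH2L, at a log2 fold change of -0.90, the groups did not overlap.

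In the other lists the counts are to be read against the same 3.4% of all genes tested. The proteasome list had 1 of 49, the immunoproteasome subunit gene PSMB9 with 28.8, 14.9, 7.43, 25.6 and 14.8 FPKM in HMO and 9.845, 5.35, 3.07, 2.09 and 3.64 FPKM in LMO (log2 fold change 1.74, SE 0.429, adjusted p 0.162 in limma). Of 28 antioxidant genes, GLRX (ENSCHIG00000011826, 1 of 3 with that symbol) and PRDX5 were higher in HMO, with log2 fold changes of 1.94 and 1.25, while the more abundant GLRX entry had 0.27. Of 126 solute carriers 1 was counted, SLC35F4 (log2 fold change 1.06), of 30 elongin and cullin ligase genes TCEB2, and of 10 antiviral sensing genes TLR3. None was counted among 23 genes of the SEC61 translocon and signal recognition, 20 of fatty acid and lipid droplet handling, 17 of p53 and apoptosis, 14 of the NOTCH pathway and 3 gap junction genes. The median of the proteasome list was 0.03 and -0.25 after rescaling to equal sums. That of the SEC61 list was 0.19 and -0.08, and that of the antioxidant list 0.18 and -0.02. The median of all genes, -0.07 before the rescaling, moved by -0.18. The sign of these list medians thus depended on the scaling, whereas the SEC61 and antioxidant medians lay above the median of all genes before and after.

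Further genes that the study names for oocytes were GRHPR, GPR84, CYB5A and ERAL1, with log2 fold changes of 0.48, -0.57, 0.30 and -0.55, none with an unadjusted p under 0.05. In the NOTCH pathway JAG1, a ligand, and HES1, a target, had log2 fold changes of -0.49 and -0.63, with the highest LMO value of each in LMO replicate 2, at 55.7 and 267 FPKM. The receptor genes NOTCH1, NOTCH2 and NOTCH3 did not pass the limit on low values. Of the gap junction genes, GJA4, the connexin through which the oocyte couples to granulosa cells, had 1.26 ± 0.27 FPKM in HMO and 1.61 ± 1.24 FPKM in LMO (SD, n = 5), a log2 fold change of -0.11.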

How the data were processed

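RNA-seq of goat oocytes was analysed from 1 table of FPKM that the authors deposited. According to the study's methods, mRNA was enriched with oligo(dT), sequenced on an Illumina instrument, duplicates were removed with picard, reads with a unique match and few mismatches were kept, and the authors computed FPKM with Cufflinks on an Ensembl annotation. The genome build is not given in the sources used here, so no coordinates are printed. The deposited FPKM table holds no read counts and single-read steps were not visible in it. Counts and mapping numbers in the study's supplement were not used here, so no value carries a counting interval. A column of the table that matched no sample label (1 column) was not used. A symbol was held by more than 1 gene for 3738 genes and missing for 410.

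Samples were grouped by their labels. No sample pair held identical values. Genes above 0.5 FPKM in at least 4 samples were tested on log2(FPKM + 1) with limma 3.58.1 (moderated test with trend, R 4.3.3) in the 10 HMO and LMO samples, and fold changes on this scale understate those of low genes. The limits (unadjusted p under 0.05, log2 fold change beyond 1) follow the study's plots. Contrasts between stages used a model of 6 group means over 29 samples. Single values were compared by exact permutation tests (scipy 1.17.1). The code was tested on simulated data. P-values measure the spread between samples, which may be partly technical.

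Named genes were those past the adjusted threshold, those with the largest fold changes among genes with a symbol, no overlap and both limits met (up to 12 in each direction), counted and most abundant members of each list, and genes named in the study's text. A gene that this rule names is not reported here. The genes, lists and limits were chosen with earlier results of these data known. No sequence table was used here, so no sequences are shown.

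Alternatives were the pseudocount (0.1 or 0.5 FPKM), the filter (none or 1 FPKM), median-of-ratios factors, quantile normalization, rescaling without the mitochondrially encoded genes, array weights, a replicate block, the exact Wilcoxon test, one fit of all samples and leaving out each sample. Leaving out both samples numbered 2 and rescaling to equal FPKM sums were chosen after seeing the data.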

Additional observations from a re-analysis of the deposited data

Results flagged for a closer look

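In 10 of 54 groups of 5 values looked at, the highest or lowest sample stood apart by Dixon's ratio of its gap to the range of the group. A rate of about 1 in 20 by chance holds for independent normal values only. The values here include unlogged FPKM of genes chosen for their differences, and several flags share LMO replicate 2. The 2 rates are therefore not comparable. In LMO the highest sample stood apart for FABP1 (ratio 1, LMO replicate 5, with the other 4 listed at 0), CALML4 (0.720, LMO replicate 1), C5orf47 (0.794), DET1 (0.888), MUL1 (0.818), NELFA (0.906) and ZNF532 (0.7996), the last 5 in LMO replicate 2. In HMO the highest sample stood apart for LOC102187932 (0.880) and C5orf47 (0.942), in HMO replicate 1 for both. LMO replicate 2 had the lowest FPKM sum of its group (0.820). LOC102182207 differed between stages, with a log2 difference of 4.75 between its fertility difference in medium follicles and the mean of those in large and small follicles. The causes were not tested.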

How the results depend on the processing

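The counts of 239 genes higher in HMO, 46 higher in LMO, 6 past the adjusted threshold and 143 without overlap depended on the processing. Genes higher in HMO numbered 110 by the exact Wilcoxon test and 166 to 345 by the other settings. Genes higher in LMO numbered 169 and 80 with pseudocounts of 0.1 and 0.5 FPKM, 29 with median-of-ratios factors, 138 when rescaled without the mitochondrially encoded genes (166 in HMO, so that 54.6% rather than 83.9% of the counted genes were higher in HMO), 147 when rescaled to equal sums, 685 with array weights and 25 by the Wilcoxon test. The adjusted count was 0 with no filter on low FPKM (1302 genes at an unadjusted p under 0.05), 0 by the Wilcoxon test (503 genes), 13 with median-of-ratios factors, 14 with quantile normalization, 1 with either rescaling, 1011 with array weights, 3 in one fit over all 29 samples and 154 without both samples numbered 2. With 5 samples in each group the smallest p of the exact Wilcoxon test is 0.00794, at an adjusted p of 0.466 here. The adjusted count of 0 by that test was therefore nearly fixed by the number of samples. Genes without overlap numbered 239 with no filter and 829 without both samples numbered 2. Genes past the adjusted threshold in the contrast between stages went from 1 to 15 and 16 with pseudocounts of 0.1 and 0.5 FPKM. They numbered 69 with median-of-ratios factors and 341 with array weights. Leaving out 1 sample gave 184 to 341 genes higher in HMO and 33 to 115 higher in LMO. It gave 0 to 161 past the adjusted threshold, 162 to 736 without overlap and 0 to 151 in the contrast between stages. The highest of each was without HMO replicate 2. With the replicate number as a block the adjusted count was 127, the counts by the limits 322 and 53, the stage count 221, and the mitochondrial share, still -0.372, had p = 0.0625 by an exact sign-flip test, the smallest that 5 pairs allow. With the block 25 named genes passed the adjusted threshold in limma that did not pass without it, among them TCEB2 (adjusted p 0.0162), DPP4 (0.00664) and HSD17B2 (0.0247). Of the 5 pairs with the same number 4 correlated at 0.46 to 0.67 and the pair numbered 4 at -0.43, and other pairs at -0.54 to 0.62 (7 of 10 samples correlated best with their own number, a hint from the data), so the numbers were not taken to pair the samples. The causes of these changes were not tested. Of 2493 alternatives for 109 named genes, 2370 stayed on their side of an unadjusted p of 0.05, 56 passed it newly and 67 no longer passed it. The sign of the log2 fold change was opposite in 108 of these alternatives, for 27 genes such as FAU, BTG4 and MRPS14, all with a p above 0.05 in both settings. Low values such as those of FABP1 have no counting interval.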
